A study of Xenopus laevis with 18 samples.

Results

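The comparison described here spans the onset of transcription from the embryo's own genome in the African clawed frog Xenopus laevis. It sets 3 later libraries, from stages 8.5, 9 and 10 of the Nieuwkoop and Faber (NF) series, against 3 earlier libraries, from NF6.5, NF7 and NF8. These 6 libraries are defined by their stage labels, out of 18 in the series, which runs from NF0 to NF33 with 1 library per stage. All were made from whole J strain embryos, an inbred line, raised in dilute saline with gentamycin, snap frozen and extracted with TRIzol. No embryo was treated or mutated, and stage is the only labelled difference between the groups. Ribosomal RNA was depleted with a RiboZero kit before ScriptSeq library construction, so transcripts with short poly(A) tails stay in the libraries. One title reads NF8_II where the stage label gives 8.5, and the label was followed. Each group of 3 consists of neighbouring stages and not of repeated samples of a stage, so every SD below measures spread between neighbouring stages. Every p-value below likewise rests on libraries of different stages and on no repeated samples. How many embryos or clutches went into a library is not given.

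After fertilisation the frog egg divides rapidly without growth, and it relies on RNA and protein that the mother stored in the egg. Transcription from the embryo's genome is largely silent until the midblastula transition, when cell cycles lengthen and zygotic genes such as those of the mesoderm and the Spemann organizer are switched on. Stored maternal transcripts are cleared at different times, in part by deadenylation, a shortening of the poly(A) tail that at these stages does not always lead to immediate decay. Gastrulation begins at the last of the 6 stages compared. In whole embryos a transcript made in fewer cells and a transcript made at a lower level per cell cannot be told apart.

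The groups differed in more than stage. The columns of the 3 earlier libraries carry the suffix rr in the table header, as do NF0, NF2 and NF6, and those of the 3 later libraries do not. The meaning of the suffix is not stated, and in the step between the groups it cannot be told apart from stage. The deposited columns of the 3 later libraries also summed to more than 1000000, by 1.84%, 2.32% and 2.63%, whereas the 3 earlier columns summed to 1000000 within rounding. In the 3 later columns 32 or 33 of the 92 ERCC spike-in rows, synthetic RNAs added to each sample, had more than 2 decimals. None of the 30993 Xenopus rows had more than 2 decimals in any of the 18 columns. Values were therefore rescaled over the Xenopus rows to TPM, a share of the library's Xenopus transcripts,, which does not involve the spike-in rows, and repeated per spike-in total. TPM keeps no depth, so the sequencing depth is unknown and a listing at 0 does not show absence. Between 3 and 19 rows in each of the 6 libraries were listed at 0 while both neighbouring stages were at 10 TPM or more. Each row is a reference sequence without a gene symbol (0 row names matched the RefSeq gene table), so groups of rows are described and only 4 rows are named. The genome of this frog is duplicated, and it is not stated how reads from near-identical gene copies were divided between rows, so the split between such copies is uncertain.

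More kinds of transcript were listed in each later library than in any earlier one. Rows above 0 numbered 20249, 20699 and 20902 at NF6.5, NF7 and NF8, and 21367, 21793 and 22184 at NF8.5, NF9 and NF10. The groups did not overlap, with a mean of 20617 ± 334 against 21781 ± 409 (SD, n = 3 each). An exact two-sided permutation test gave p = 0.1 (adjusted 0.167 over 5 measures), the smallest value that 20 splits of 3 against 3 allow. Rows at 1 TPM or more stood at 17400, 17458 and 17566 in the earlier libraries and at 17806, 18124 and 18270 in the later ones, again without overlap. Rows at 10 TPM or more did not separate the groups. They numbered 13180, 13172 and 13299 in the earlier libraries, 13285 at NF8.5 and 13262 at NF9, and the lowest value was 12504 at NF10 (exact permutation test, p = 0.8). The 100 most abundant rows held 15.2%, 14.7% and 14.3% of the Xenopus total in the earlier libraries, 16.3% at NF8.5, 17.1% at NF9 and 25.5% at NF10. The Xenopus total was 1.28, 1.55 and 1.42 times the spike-in total in the earlier libraries and 1.59, 1.41 and 1.38 times in the later ones, in stage order. These ratios overlapped (exact permutation test, p = 0.7). That test cannot go below 0.1 here, so it could not have called any difference. The ratios cover the listed rows after ribosomal RNA depletion and do not measure total RNA. An alternative spike-in total, derived from the Xenopus total, was chosen after seeing the data. With it the ratios were 1.28, 1.55 and 1.42, then 1.67, 1.49 and 1.47. The difference between the group means was 0.126 in place of 0.0423, and the groups still overlapped.

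Rows that were nearly absent from the egg and early cleavage embryo made up a growing part of the later libraries. The 13423 rows with a mean under 1 TPM at NF0, NF2 and NF6, which are libraries outside the comparison, held 0.206%, 0.256% and 0.243% of the Xenopus total at NF6.5, NF7 and NF8. They held 0.429% at NF8.5, 0.841% at NF9 and 3.11% at NF10. The lowest later library was above every earlier one, and the share was higher at each later stage than at the one before. Relative to the spike-in total, the same rows stood at 0.00265, 0.00397 and 0.00345 in the earlier libraries and at 0.00684, 0.0119 and 0.0431 in the later ones, in the same order as on the TPM scale. Of these rows 8757 were listed at 0 at NF0, NF2 and NF6. Their share was 0.0694%, 0.124% and 0.1% in the earlier libraries, then 0.243%, 0.516% and 1.95%. The small rise from 0 at NF6 to NF6.5 follows at least in part from choosing rows on the earlier value. At NF12, a library outside the comparison that lacks the suffix and whose column sums to 1000000, the rows under 1 TPM held 6.75%.

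**Figure D1:**
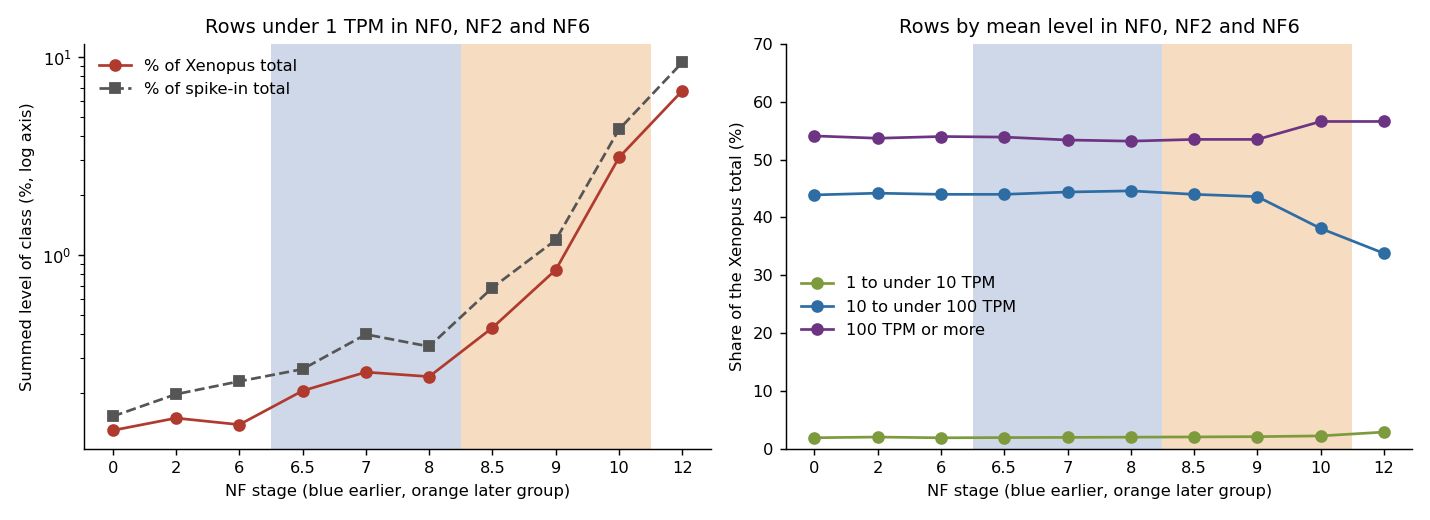
The left panel shows the summed level of rows under 1 TPM in NF0, NF2 and NF6, as a percentage of the Xenopus total and of the spike-in total, on a log axis; the right panel shows the share of the Xenopus total for rows of higher maternal level. Each point is 1 library, and the low rows stand at 0.243% of the Xenopus total at NF8 and 3.11% at NF10.

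Rows that the egg already held in quantity did not keep equal shares: at NF10 that of the middle class was lower, and that of the most abundant class higher, than in any earlier library. Rows with a mean from 10 to under 100 TPM at NF0, NF2 and NF6 held 44%, 44.4% and 44.6% of the Xenopus total in the earlier libraries. They held 44% at NF8.5, 43.6% at NF9 and 38.1% at NF10. Relative to the spike-in total this class stood at 0.565, 0.689 and 0.634 and then at 0.701, 0.615 and 0.527, so its NF10 value lay below all 3 earlier values on that scale too. Rows of 100 TPM or more held 53.9%, 53.4% and 53.2%, then 53.5%, 53.5% and 56.6%. Only NF10 stood outside the earlier range of that class by more than 1 percentage point. Per spike-in total, the most abundant class at NF10 was at 0.782, inside the earlier range of 0.692 to 0.829. Rows from 1 to under 10 TPM held 1.94% to 2.01% in the earlier libraries and 2.05%, 2.1% and 2.23% in the later ones.

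Each later library was then set against the mean of the 3 earlier ones, row by row, on the log2(TPM + 1) scale, which understates the change of low rows. For scale, an earlier library set against the mean of the other 2 had 228 to 287 rows higher by 2-fold or more and 178 to 301 lower, out of 30993. At NF8.5 480 rows were higher, or 1.55%, and 230 were lower, or 0.742%. At NF9 912 rows were higher, or 2.94%, and 399 were lower, or 1.29%. By NF10 1846 rows were higher, or 5.96%, and 2867 were lower, or 9.25%. Higher rows thus exceeded the range of the earlier libraries at all 3 stages, whereas lower rows did so at NF9 and NF10 and lay within it at NF8.5. These counts compare 1 library with a mean of 3 and have no replicate check. All of them share the 3 earlier libraries. At NF12 3809 rows were higher and 7351 lower.

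The higher rows came mostly from the classes that were low in the egg, and the lower rows from the classes that were abundant there. At NF10, rows under 1 TPM in NF0, NF2 and NF6 made up 1285 of the 1846 rows higher by 2-fold or more. Of all 8757 rows listed at 0 in those libraries, tested or not, 9.03% were higher and 0.502% lower. Of all 4666 rows above 0 and under 1 TPM, 10.6% were higher and 0.75% lower. Rows this low have little room to be lower on a scale with 1 TPM added. Of the 2230 rows at 100 TPM or more, 3.54% were higher and 21.4% lower. In between, 1.74% of 11033 rows from 10 to under 100 TPM were higher and 16.2% lower, and 6.73% of 4307 rows from 1 to under 10 TPM were higher and 12.1% lower. The median log2 difference of NF10 from the earlier mean was -0.32 in the most abundant class and -0.27 in the class from 10 to under 100 TPM.

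A larger share of the rows that ended higher than of those that ended lower had passed 2-fold before NF10 and stayed past it. A larger change can pass a fixed 2-fold cut sooner, so these shares do not compare timing between the directions. Among the 1846 rows higher at NF10, 213 (11.5%) were past 2-fold from NF8.5 on and 416 (22.5%) from NF9 on. The other 1217 (65.9%) were past it at NF10 but not at NF9, whatever their value at NF8.5. Among the 2867 rows lower at NF10, the numbers were 88 (3.07%), 205 (7.15%) and 2574 (89.8%). The 213 rows higher from NF8.5 on had a median of 0.0438 TPM in the earlier mean, 4.04 TPM at NF8.5, 15.7 TPM at NF9, 40 TPM at NF10 and 34.2 TPM at NF12. Of these, 165 (77.5%) were under 1 TPM in NF0, NF2 and NF6, beside 13423 of all 30993 rows, and 155 reached 10 TPM at NF10. The 416 rows higher from NF9 on had medians of 0.431 TPM at NF8.5, 3.32 TPM at NF9, 11.6 TPM at NF10 and 17.9 TPM at NF12. The 1217 rows past 2-fold at NF10 but not at NF9 had a median of 4.73 TPM at NF10 and 13.4 TPM at NF12. Of this late group 72 of 1217 rows were in the class of 100 TPM or more. In the groups from NF8.5 and NF9 on, 5 of 213 and 2 of 416 rows were. That class made up 2230 of all 30993 rows, a larger part than in any of these groups. The change of the 213 rows higher from NF8.5 on, like that of the 88 lower ones, falls on the step at which the header suffix ends. With the later mean also required to differ by 2-fold, a rule chosen after seeing the data, the numbers at NF8.5 and NF9 were 213 and 378 higher and 88 and 152 lower. The numbers at NF10 were 276 higher and 245 lower, so the majority of lower rows at that stage was not kept.

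Lower rows had another profile. The 2574 rows past 2-fold at NF10 but not at NF9 had a median of 32.8 TPM in the earlier mean. Their medians were 29.8 TPM at NF8.5, 25.6 TPM at NF9, 11 TPM at NF10 and 4.8 TPM at NF12. The 205 rows lower from NF9 on had medians of 23.8, 17.1, 8.08, 4.15 and 5.24 TPM at the same points. The 88 rows lower from NF8.5 on had a median of 6.51 TPM in the earlier mean and of 0 at every later stage to NF12. Of these 88 rows, 38 (43.2%) were under 1 TPM in NF0, NF2 and NF6. That is close to the part among all rows, 13423 of 30993.

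**Figure D2:**
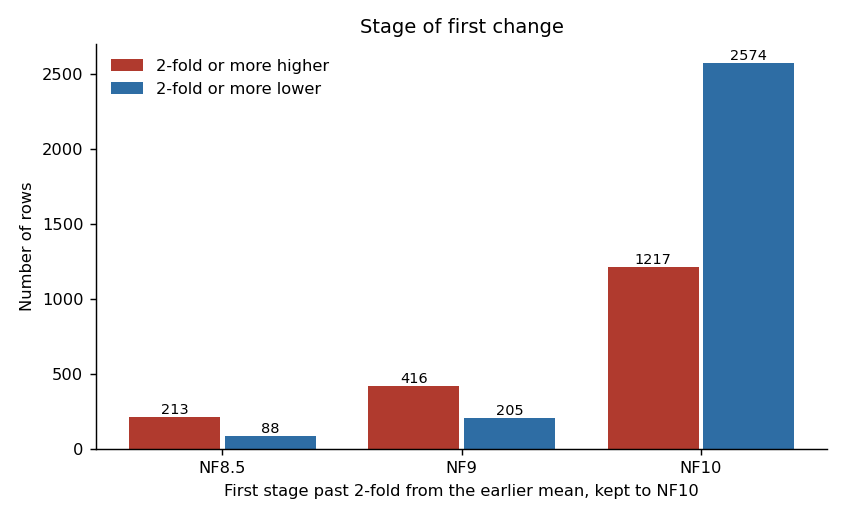
Bars give the number of rows, out of 30993, whose first stage at 2-fold or more from the mean of the 3 earlier libraries, kept to NF10, was NF8.5, NF9 or NF10. Rows that became higher outnumber rows that became lower at NF8.5 (213 against 88) and NF9 (416 against 205), and the order is turned at NF10 (1217 against 2574), which does not hold if the later mean must differ by 2-fold too (276 against 245). A larger change can pass 2-fold sooner, so the bars do not compare timing between the directions.

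The steps between neighbouring libraries describe the same values in another way, and are not separate evidence. In 13356 rows averaging 10 TPM or more over the 6 libraries, 140 were higher by 2-fold or more and 59 lower at NF8.5 than at NF8. The rows were chosen on those 6 libraries, so a row that is high at NF10 alone can enter through that value. At NF9 205 were higher and 66 lower than at NF8.5. At NF10 381 were higher and 1289 lower than at NF9. Both steps among the earlier libraries had 46 to 73 rows higher and 42 to 46 lower. The median log2 change was between -0.017 and 0.006 in the 4 steps from NF6.5 to NF9 and -0.241 from NF9 to NF10. For 64 spike-in rows of the same minimum level it was -0.03 in that last step, with 1 row higher and 1 lower by 2-fold. From NF8 to NF8.5, 0 of the 64 were higher and 2 lower, and from NF8.5 to NF9 2 were higher and 1 lower. From NF8.5 to NF10, 3.12% of spike-in rows were higher by 2-fold and 1.56% lower, against 3.37% and 13.6% of Xenopus rows. The share of higher Xenopus rows (450 of 13356) was thus close to that of spike-in rows. The latter rests on 2 of 64 rows, too few to fix a rate. The step from NF8 to NF8.5 joins libraries with and without the suffix, and the steps from NF8.5 to NF10 do not.

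**Figure D3:**
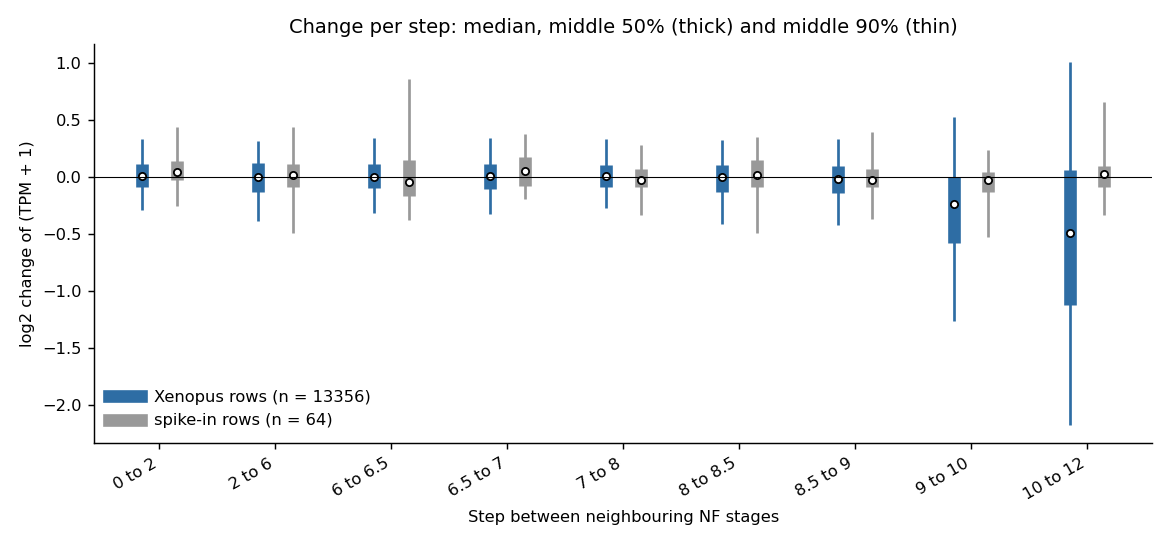
Vertical bars show the log2 change of (TPM + 1) from 1 library to the next, with the median as a point, the middle 50% as a thick bar and the middle 90% as a thin line, for Xenopus rows (n = 13356) and spike-in rows (n = 64). The Xenopus median leaves 0 at the step from NF9 to NF10, at -0.241, and is at -0.495 in the step to NF12.

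Tested as a step between both groups, few rows passed. With limma on the 6 libraries, 1 of the 18196 rows averaging 1 TPM or more was higher in the later group (0.0055% of rows, adjusted p under 0.05) and 0 were lower (0%). At an unadjusted p under 0.05 there were 856 higher and 1443 lower rows. The called row was listed at 0 in NF6.5, NF7 and NF8 and stood at 12.8, 11.4 and 15.7 TPM in NF8.5, NF9 and NF10 (limma adjusted p = 0.0267), but it was again listed at 0 at NF12 and NF16, with 45.3 TPM at NF14. The libraries of both groups did not overlap for 2056 higher rows (11.3%) and 3112 lower ones (17.1%). The count of calls leaned on single stages. It was 135 higher and 35 lower without NF8.5, 9 and 6 without NF10, 2 and 0 without NF9, 0 and 2 without NF6.5, 0 and 0 without NF7, and 0 and 1 without NF8. With the spread shared over all 18 libraries it was 220 higher and 109 lower.

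The 4 rows named here are those with the largest differences between the group means in each direction, among rows whose groups did not overlap and whose higher group averaged at least 10 TPM. They are given as values, since none passed the adjusted threshold. Row XeXenL6RMv10055418m was listed at 0 at NF6.5 and NF7 and stood at 0.17 TPM at NF8, 29 TPM at NF8.5, 194 TPM at NF9 and 1320 TPM at NF10. All 3 later values exceeded all earlier ones, and the level was higher at each stage from NF8 to NF10. The log2 difference between the groups was 7.55 (SE 1.28, limma adjusted p = 0.206). After the transition its level was 882 TPM at NF12, 63.4 TPM at NF20 and 0.607 TPM at NF33.

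Row XeXenL6RMv10052733m was listed at 0 in all 3 earlier libraries and stood at 38.4, 224 and 379 TPM at NF8.5, NF9 and NF10. It was not absent before, with 42.4 TPM at NF2 and 10.6 TPM at NF6. The log2 difference was 7.23 (SE 0.809, limma adjusted p = 0.0856). Row XeXenL6RMv10047901m went the other way, with 48.9, 59.6 and 19.1 TPM in the earlier libraries and a listing at 0 in all 3 later ones (log2 difference -5.3, SE 0.423, limma adjusted p = 0.0655). This row was also listed at 0 at NF0 and NF2, and stood at 89 TPM at NF20. Row XeXenL6RMv10023776m stood at 10.5, 18.2 and 6.16 TPM and then at 0 in all 3 later libraries (log2 difference -3.54, SE 0.383, limma adjusted p = 0.0845). It was at 16.2, 8.72 and 23 TPM at NF0, NF2 and NF6, and after NF10 it was above 0 only at NF12, with 5.02 TPM. The groups of all 4 rows part at the step at which the suffix ends, and XeXenL6RMv10047901m is listed at 0 and above 0 by turns across the series. From NF8.5 to NF10, where no library carries the suffix, both higher rows had a rising slope (limma adjusted p = 0.00171 for XeXenL6RMv10055418m and 0.0153 for XeXenL6RMv10052733m). Both were chosen on the same later values, so these p-values describe them and are no separate test. The slope of both lower rows was 0, since they were listed at 0 in all 3 later libraries.

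**Figure D4:**
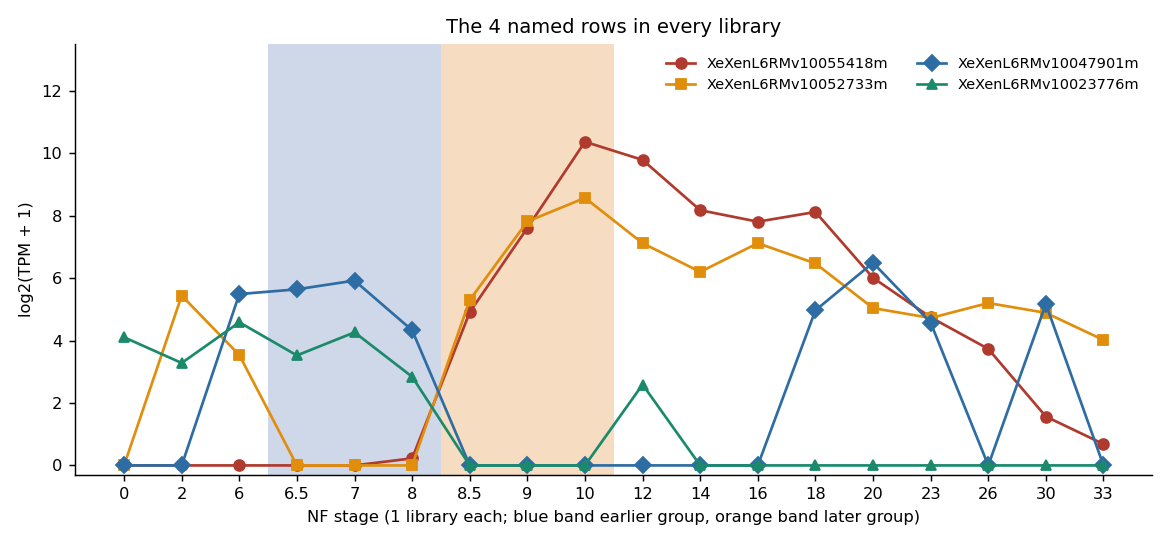
Levels of the 4 named rows in all 18 libraries, as log2(TPM + 1), with the earlier group in blue and the later group in orange. Both higher rows climb from NF8 to NF10, to 1320 and 379 TPM, and both lower rows are at 0 from NF8.5 to NF10.

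Within the later group the slope could be estimated apart from the suffix, since NF8.5, NF9 and NF10 all lack it. Its test was not wholly apart, since most of the error came from the earlier libraries, which carry it. A slope over these 3 stages was fitted beside the step between the groups, in the same 6 libraries. It was positive for 958 of 18196 rows (5.26%) and negative for 2979 (16.4%) at an adjusted p under 0.05 (limma, 3 residual degrees of freedom). At an unadjusted p under 0.05 the numbers were 1514 and 5278. A slope over NF6.5, NF7 and NF8 fitted in the same way was called for 0 rows (0%) in either direction, with 133 positive and 60 negative at an unadjusted p under 0.05. That count cannot be set against the one for the later stages, since 2 of the 3 residual degrees of freedom in the earlier fit hold the spread of NF8.5 to NF10, while in the later fit 2 of the 3 hold that of the earlier libraries. The difference between both slopes was itself called for 0 rows (0%, lowest adjusted p = 0.0816, 2 residual degrees of freedom), with 889 positive and 2870 negative at an unadjusted p under 0.05. A difference in pace between the later and the earlier stages is thus not shown row by row.

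How many slopes were called depended on the libraries and on the scaling, and which direction held the majority depended on the libraries. Without NF10, which leaves the change from NF8.5 to NF9, 323 rows rose and 49 fell. Leaving out NF6.5, NF7 or NF8 left 258, 175 and 189 rising and 179, 55 and 46 falling, while the unadjusted counts stayed mostly negative, with at least 4498 of at least 5859. Calls were 24.3% positive in TPM, 15.9% positive per spike-in total (821 against 4327) and 44.8% positive with median ratio scaling (1563 against 1926), which takes out a shift shared by most rows. Falling calls were thus the majority in each scaling, by different margins. In all 3 scalings 754 rows rose and 1926 fell. In the fit scaled to spike-ins, 4 of 85 spike-in rows were called for a slope (4.71%), against 28.2% of Xenopus rows. Spike-in rows fitted alone were called 0 times for the slope and 0 times for the step between groups (limma). At an unadjusted p under 0.05 there were 5 of 85 for the slope (5.88%), against 37.3% of Xenopus rows (limma). For the step there were 10 of 85 (11.8%), close to the 12.6% of Xenopus rows. These shares come from separate fits of spike-in and of Xenopus rows. With values divided by the spike-in total, the step had 4 of 85 spike-in rows (4.71%) at that unadjusted p, and 1383 of 18196 Xenopus rows (limma). The log2 differences of these 85 spike-in rows between the groups ran from -2.88 to 0.6, with 62 at 0.25 or less in size.

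Rows with a called slope changed by different amounts in each direction. From NF8.5 to NF10 the 958 rising rows had a median log2 change of 2.53 (quartiles 1.35 and 3.86), and 401 of them changed 8-fold or more. The 2979 falling rows had a median of -1.12 (quartiles -1.5 and -0.83), and 55 changed that far. Relative to the earlier mean, the median rising row was at 0.11 at NF8.5, 0.66 at NF9 and 2.82 at NF10 on the log2 scale. The median falling row was at -0.05, -0.29 and -1.17. In TPM, 612 (63.9%) of the rising rows already stood above their earlier mean at NF8.5. Of the falling rows 1827 (61.3%) already stood below theirs. These shares were not counted for all rows tested. Scaled to spike-ins, the median falling row was at 52 at NF8.5, within the earlier values of 45.2, 53.8 and 48.9. On that scale 30 falling rows were 2-fold or more above the earlier mean at NF8.5 and 4 were below it. The median rising row was at 3.35 there, against 0.965, 1.1 and 1.14. Rising rows held 7.14%, 7.19% and 7.15% of the Xenopus total in the earlier libraries and 7.64%, 10.1% and 21.7% in the later ones. Falling rows held 23.6%, 23.4% and 23.5%, then 21.8%, 18.7% and 10%. Both sets were chosen on the later 3 libraries, so these values describe them and do not test them.

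The rising rows spanned the whole range of levels in the egg. At NF0, NF2 and NF6, 459 were under 1 TPM and 128 were at 100 TPM or more. Only 946 of the 13423 rows under 1 TPM passed the filter on low values, and these had to average more in the 6 libraries than in those 3 to do so, so their number is a description. Of the falling rows 695 were at 100 TPM or more in those 3 libraries and 17 were under 1 TPM. Rows at 100 TPM or more all passed the filter, and 5.74% of them rose and 31.2% fell, beside 5.26% and 16.4% of all rows tested.

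Most of the gain in share at NF10 lay in rows that were already abundant, which also held most of the loss. Summed over rows that were higher at NF10 than in the earlier mean, the gain was 23.5 percentage points of the Xenopus total, and an equal amount was lost by the others. The same sum was 4.09 to 5.06 points for an earlier library against the other 2, 6.13 points at NF8.5 and 8.68 points at NF9. Rows at 100 TPM or more at NF0, NF2 and NF6 held 66.5% of the gain and 53.3% of the loss. Rows listed at 0 in those libraries held 8.25% of the gain, and rows above 0 and under 1 TPM held 4.61%. Rows from 10 to under 100 TPM held 17.3% of the gain and 43.8% of the loss. Points of gain weigh rows by their level, so these parts are to be read beside the share of each class. In the earlier libraries rows at 100 TPM or more held 53.2% to 53.9% of the Xenopus total. Rows from 10 to under 100 TPM held 44% to 44.6% there, and rows listed at 0 held 0.0694% to 0.124%. The gain of an earlier library was not split by class.

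The 10 rows with the largest gain, chosen after their values were seen, together gained 7.28 of the 23.5 points. The largest 10 gains of an earlier library against the other 2 were 1.38 of 5.06, 1.09 of 4.92 and 0.469 of 4.09 points, and those of NF8.5 were 2.14 of 6.13 points. At NF9 they were 2.13 of 8.68 points. All 10 were in the class of 100 TPM or more. Together they held 4.43%, 5.01% and 4.2% of the Xenopus total in the earlier libraries and 4.96%, 6.07% and 11.8% in the later ones. Of the 10, 5 were called for a rising slope, and 4 stood above every earlier library in all 3 later ones. Among all rows tested 5.26% were called rising and 11.3% stood so. Choosing rows by their gain at NF10 favours both counts, which describe these rows and do not test them. Against the spike-in total they stood at 0.0569, 0.0778 and 0.0597 and then at 0.079, 0.0856 and 0.164. Each of the 10 was 1.4 to 4.31 times its earlier mean at NF10, with a median of 2.81 times. Their share was 8.22% at NF12 and 3.19% at NF33. NF10 held the highest share among the 18 libraries, which the choice on the NF10 value favours. Relative to the spike-in total the value at NF30, at 0.163, was next to that of NF10.

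At NF12, which took no part in the comparison, most called rows were still on their new side of the earlier mean. In that column, which sums to 1000000 like those of the earlier group, 917 of the 958 rising rows were above their earlier mean, and 799 (83.4%) were above it by 2-fold or more, beside 11% of all rows tested. Of the 2979 falling rows 2876 were below their earlier mean at NF12 and 2491 (83.6%) were below it by 2-fold or more, beside 40.2% of all rows tested. Of all 18196 rows tested, 4990 were above their earlier mean at NF12 and 13152 below it. A place below the earlier mean at NF12 was thus shared by most rows tested. The median rising row stood at 46.9 TPM at NF10, 64.3 TPM at NF12, 29.9 TPM at NF20 and 13.8 TPM at NF33. At NF8 the median had been 1.14 TPM. These are shares, and the Xenopus total per spike-in total was 1.38 at NF10 and 4.2 at NF33. Scaled to spike-ins, with the earlier libraries averaging 1000000, the median rising row stood at 45.7 at NF10, 63 at NF12, 43.9 at NF20 and 40.7 at NF33. By NF33, 480 rising rows (50.1%) were 2-fold or more above the earlier mean in TPM, and 693 (72.3%) were so on the spike-in scale, beside 11.8% and 34.1% of all rows tested. The highest TPM in the series fell at NF10 for 303 rising rows (31.6%), at NF12 for 286 (29.9%) and at NF16 for 172 (18%).

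In TPM, the median falling row was low and nearly level after NF12, while the summed share of these rows was not level. That share was 6.52% of the Xenopus total at NF12 and 10.9% at NF33. The median of the falling rows was 48.8 TPM at NF8, 20.4 TPM at NF10 and 8.97 TPM at NF12. It then stayed between 8.31 and 10.8 TPM to NF33. At NF33 2250 of them (75.5%) were 2-fold or more below the earlier mean, beside 51.1% of all rows tested, and 236 (7.92%) were under 1 TPM, beside 8.45% of all rows tested. On the spike-in scale the median of the falling rows did not stay level. Their median was 48.9 at NF8, 19.8 at NF10, 8.79 at NF12, 13.9 at NF20 and 28.6 at NF33, and 1175 (39.4%) were 2-fold or more below the earlier mean at NF33, beside 18.8% of all rows tested. Before the later group, the median falling row was nearly level, at 52.3 TPM at NF0, 49.4 TPM at NF6 and 48.8 TPM at NF8.

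**Figure D5:**
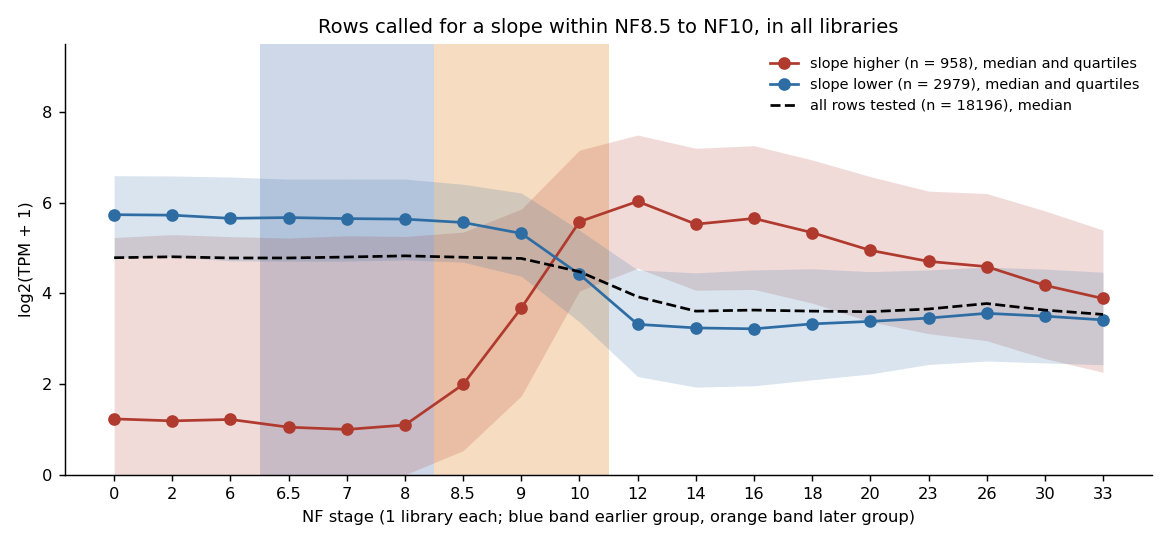
Median (points) and quartiles (shading) of log2(TPM + 1) in each of the 18 libraries for rows called with a rising (n = 958) or falling (n = 2979) slope over NF8.5 to NF10, with the median of all 18196 rows tested as a dashed line. The sets cross between NF9 and NF10, and the median falling row is at 8.97 TPM at NF12 and 9.67 TPM at NF33.

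The step before this one was examined for scale. Between NF6.5 to NF8 and NF0 to NF6, both with the suffix, limma called 0 of 17611 rows (0%) in either direction, with 1171 higher and 1287 lower at an unadjusted p under 0.05. The libraries of NF6.5 to NF8 enter both comparisons. The difference between the 2 steps, fitted over the 9 libraries from NF0 to NF10, was called for 0 of 18145 rows (0%, lowest adjusted p = 0.102), with 355 higher and 439 lower at an unadjusted p under 0.05. The 2 steps were therefore not shown to differ for any single row by this test, which treats the spread from NF8.5 to NF10 as error.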

How the data were processed

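RNA from whole Xenopus laevis embryos was sequenced at 18 stages, 1 library each. The submitters' processing notes name CASAVA 1.8.2, Trimmomatic, Bowtie and RSEM without saying what each was used for, and neither reference nor build is stated. The deposited table has 31085 rows, 92 of them spike-ins. In 9 columns, among them NF6.5 to NF8, the authors' deposited values are TPM. In the other 9, among them NF8.5 to NF10, the deposited values are a TPM-like score, since the columns sum to 1.48% to 2.72% over 1000000, although the design had assumed TPM throughout. Spike-in rows were left out and each library was rescaled to 1000000. The repeat per spike-in total divides by the deposited spike-in rows.

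Rows averaging 1 TPM or more over the 6 libraries were tested on the log2(TPM + 1) scale using limma 3.58.1 (R 4.3.3, intensity trend, Benjamini-Hochberg adjustment over all rows tested, threshold 0.05). Fits were also run on simulated data in which all rows had the same spread, so that run does not give their error rates in these data. Classes used NF0, NF2 and NF6. Single library values were compared by exact permutation tests. The comparison is defined by stage labels, but it was proposed, and its classes and tests were chosen, with earlier results of these data known. Gene lists by symbol were not run, since 0 row names matched. Named rows are the 2 largest differences in each direction with no overlap, an average of 10 TPM or more and at least 1 TPM per library in the higher group, and an adjusted p under 0.05. Fewer than 2 rows passed in either direction (1 higher, 0 lower), so the adjusted p was dropped, as the rule provides. Alternatives covered scaling, pseudocount, filter, spread, trend shape and each library left out.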

Additional observations from a re-analysis of the deposited data

How the results depend on the processing

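The call between the 2 groups of stages was fragile in number. Against 1 higher and 0 lower rows, values per spike-in total gave 25 and 2, a pseudocount of 0.1 gave 27 and 5, array weights gave 36 and 10, and 1 fit over all 18 libraries gave 220 and 109. With a pseudocount of 5, with a mean of at least 5 TPM and with a trend over stage order, 0 rows were higher. A hinge that is level to NF8 and linear after it gave 1342 higher and 3549 lower. Leaving out 1 library gave 0 to 135 higher and 0 to 35 lower. A spike-in total taken as 1000000 minus the Xenopus total, chosen after seeing the data, gave 26 and 2. For the slope from NF8.5 to NF10, median ratio scaling gave 1563 rising and 1926 falling, no filter gave 1477 falling, and leaving out 1 library gave 175 to 1247 rising and 46 to 3938 falling. Beside a slope from NF6.5 to NF8, an alternative chosen after seeing the data, 246 rose and 171 fell, which turns the majority too. That fit and those without an earlier library have fewer residual degrees of freedom. The step before gave 10 higher and 10 lower per spike-in total, and the difference between the steps gave 1 higher row without a filter.

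Defining maternal classes by NF0 alone gave 105 rows of the class at 0 TPM that were lower at NF10, against 44, and 285 rows above 0 and under 1 TPM that were higher, against 494. With 3-fold in place of 2-fold, 126, 260 and 784 rows were first higher at NF8.5, NF9 and NF10, and 38, 39 and 889 first lower. Asking also for a 2-fold difference of the later mean, chosen after seeing the data, left 276 rows first higher and 245 first lower at NF10. The cause of these shifts was not tested, except that stricter thresholds leave fewer rows by construction. Of all alternative values 119 stayed within the limits set for them (1.5 times for counts, 1 SD for library measures, the same side of the threshold for named rows), 51 moved further, and 7 differences of named rows passed the threshold only under the alternative. Uncalled differences near 0 changed sign within these limits. The difference in rows at 10 TPM or more, -200, was 56.5 without NF10. That in Xenopus total per spike-in total, 0.0423, was -0.0257 without NF6.5 and -0.0236 without NF8.5. The majority of called slopes turned from falling to rising without NF6.5, NF7, NF8 or NF10. Depth is unknown, so levels near 0 are the least certain. No paired analysis was possible because each stage has 1 library and no replicate numbers.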
